A study of Mus musculus with 12 samples.

Results

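The short noncoding RNAs described here are the box H/ACA small nucleolar RNAs, the small Cajal body RNAs, the Y RNAs, the U RNAs and the RNA parts of telomerase and RNase MRP, as array probe sets read them in adult mouse medial prefrontal cortex. They comprised 38 of the 18820 genes that had a probe set of their own: 26 box H/ACA RNAs (symbols starting with Snora), 3 small Cajal body RNAs (Scarna), 2 Y RNAs (Rny1 and Rny3), 5 U RNAs (Rnu), Rmrp and Terc. Members were chosen by symbol in the platform annotation, and where a gene had several probe sets the one with the highest mean over all 12 samples, whatever their group, stood for it. Those means chose the probe sets and are given as a description. Rpph1, the RNA of RNase P, was among the symbols sought and had no probe set. A further 19 probe sets carried a symbol of these classes together with other genes and were not used.

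The 12 arrays came from 6 offspring of poly(I:C)-treated mothers and 6 offspring of saline-treated mothers, all of them C57BL/6N mice aged 12 weeks, with no transgene or deletion named. Poly(I:C) mimics a viral double-stranded RNA and activates innate immunity, and the mothers received it at 5 mg/kg, or saline, intravenously on gestation day 17. The comparison asks what prenatal immune activation leaves in the adult cortex, and the offspring had been through behavioural testing before the tissue was taken. The labels name neither litter, sex nor array strip. Any littermates are therefore unmarked, and every p-value rests on the variation among these 12 offspring alone.

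Box H/ACA RNAs fold into a pair of hairpins, with the H box between them and the ACA box at the end, and take their name from these boxes. With the proteins dyskerin, Nop10, Nhp2 and Gar1 they guide the change of chosen uridines in ribosomal RNA into pseudouridine, and a few act in cutting the ribosomal precursor. Small Cajal body RNAs guide changes in spliceosomal RNAs, either this one or ribose methylation. Telomerase RNA shares the H/ACA fold, and most box H/ACA RNAs are trimmed out of introns of other genes, many of them ribosomal protein genes. Y RNAs, RNase MRP RNA and telomerase RNA are by contrast transcribed as genes of their own.

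The RNAs themselves were not among the sequences used here. However, 4 members overlap annotated microRNA hairpins, whose sequences from RefSeq (GRCm38.p6) are shown because they contain the defining end of the H/ACA fold. In 3 of the 4 the hairpin includes the ACA trinucleotide, in capitals, that lies 3 bases before the annotated end of the member when read on the strand of the hairpin. Of all 3-base windows in the 1005 hairpins of the table, 1.54% read ACA. The hairpins are written 5′ to 3′, and the remaining one, Mir1291 with Snora34, does not reach the end of its member.
Scarna13, hairpin Mir3069 (chr12:105031077-105031141, minus strand): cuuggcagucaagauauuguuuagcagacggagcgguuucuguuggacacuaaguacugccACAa
Snora19, hairpin Mir3084-2 (chr19:60774329-60774397, minus strand): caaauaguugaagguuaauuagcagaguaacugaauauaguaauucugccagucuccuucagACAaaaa
Snora36b, hairpin Mir664 (chr1:185242975-185243043, plus strand): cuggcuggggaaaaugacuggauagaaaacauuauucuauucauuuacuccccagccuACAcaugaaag

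Before any comparison, controls 5 and 2 have to be named. Control 5 had the lowest value of all 12 samples in 18 of the 38 members, and in 10 of the 18 members whose probe set was at or above the median brightness of the array. Over all 23099 probe sets with an annotated gene, control 5 was the lowest sample in 8.13%. Its median deviation from the 12-sample mean was -0.17 (log2) over the 38 members and -0.32 over the 18 brighter ones, whereas the medians of the other 11 animals over the 38 members ran from -0.10 to 0.15. The same animal did not stand low over all probe sets, where its median deviation was 0.00073. Over the 30 box C/D small nucleolar RNAs its median deviation was 0.03. That was the lowest among the controls, the others running from 0.08 to 0.15, and above the poly(I:C) offspring (-0.15 to 0.0059). The array median of control 5, 5.17, lay within the range of the 12 arrays (5.15 to 5.21). Control 5 also had the highest mean of 6 striatal markers (6.48, against 5.74 to 5.92 in poly(I:C) offspring and 5.82 to 6.48 in controls). Control 2 stood out the other way, with the highest value of all 12 samples in 12 members and a median deviation of 0.33 over the 18 brighter ones. Leaving control 2 out moved the median difference over the 38, poly(I:C) minus control, from -0.11 to -0.06. The fit was also repeated without control 5, and values without control 5 are given below. Control 5 was singled out on the values of these same members. Where it is low, leaving it out moves the difference downwards by construction. The values without it are therefore a description and not a separate test.

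**Figure D1:**
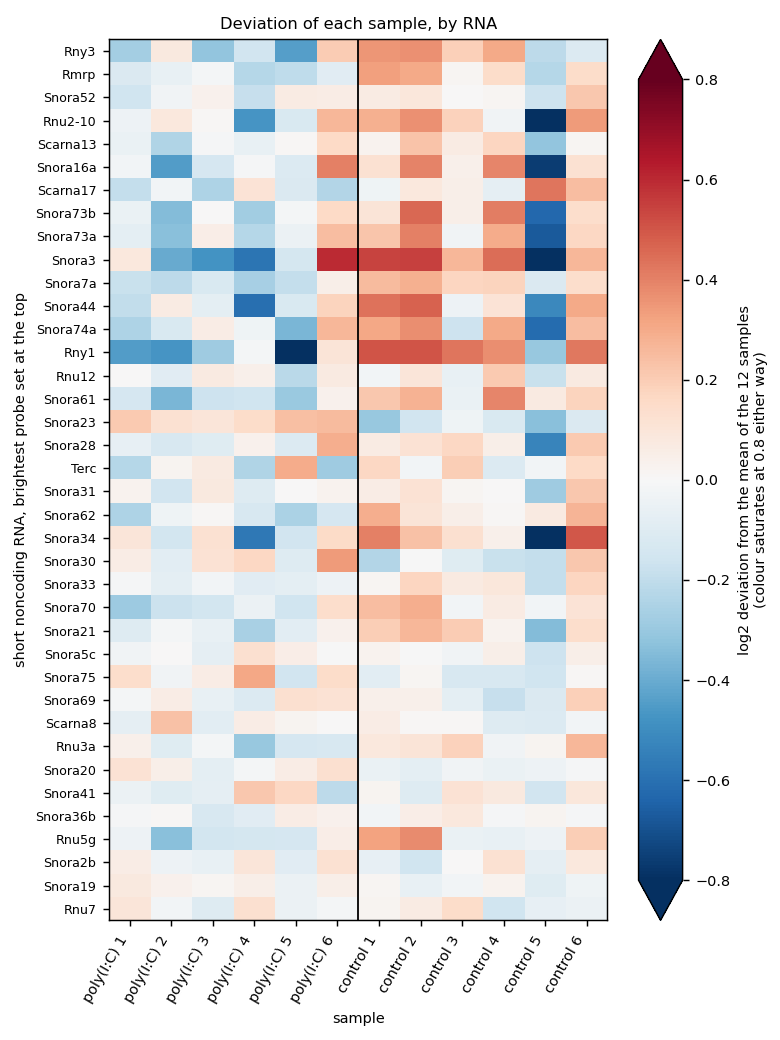
Deviation of each sample (columns, poly(I:C) offspring on the left, controls on the right) from the mean of the 12 samples, in log2 units, for each of the 38 RNAs (rows, brightest probe set at the top). Control 5 holds the darkest blue cells among the controls, with the lowest value in 18 of 38 RNAs, and Snora23 is the row that is red on the left and blue on the right.

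In poly(I:C) offspring 4 of the 38 RNAs were lower and 1 was higher past an adjusted p of 0.05 in the limma fit over all annotated probe sets. The Y RNA Rny1 and the box H/ACA RNAs Snora61, Snora7a and Snora62 fell, with folds between 1.20 and 1.56, and the box H/ACA RNA Snora23 rose 1.28-fold. The background is 2.83% of the 23099 probe sets called in either direction, 0.805% lower and 2.02% higher, against 13.2% of the members (5 of 38). The split of the background between directions depended on scaling, with 186 lower and 467 higher as deposited and 285 lower and 239 higher after quantile normalization, while the members gave 4 lower and 1 higher in both.

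The remaining 33 members did not pass. A difference below 0 was found for 28 of the 38, against 48.0% of all probe sets, and the median difference over the 38 was -0.11 (log2), against 0.0030 over all probe sets. At an unadjusted p under 0.05 there were 14 members, 36.8% of them, beside a background of 19.1%. Of these 11 were lower, beside a background of 7.33%, and 3 were higher, beside 11.7%. Groups did not overlap for Snora23 and Snora62, 2 of 38, beside a background of 2.37%. The members were singled out with earlier results of these data known, so these counts describe them and do not test the class. The 30 box C/D RNAs (Snord), the sister class that guides ribose methylation, held 14 lower and 1 higher calls with a median difference of -0.18. Box H/ACA RNAs on their own held 3 lower and 1 higher calls among 26, with a median of -0.09. Without control 5 the box H/ACA RNAs held 5 lower and 1 higher calls with a median of -0.15, and the box C/D RNAs 14 lower and 2 higher with a median of -0.17. The difference between the 2 classes was not tested.

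**Figure D2:**
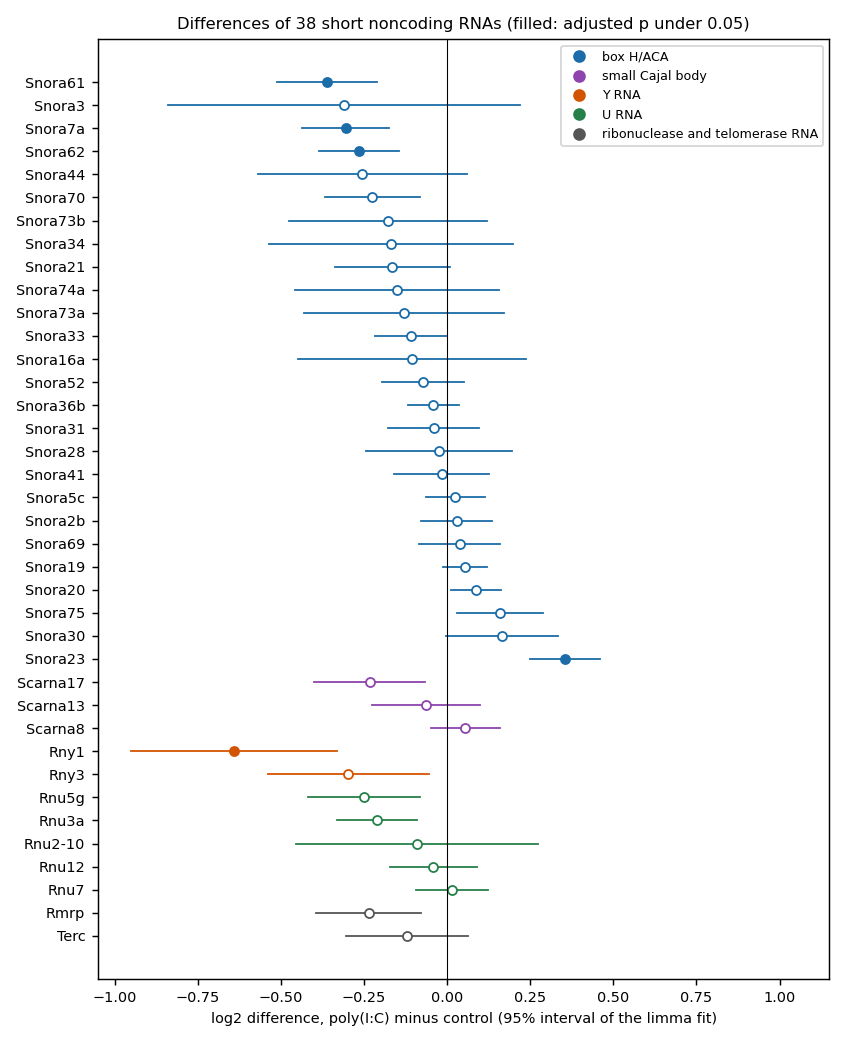
Log2 difference between poly(I:C) offspring and controls (x axis, with the 95% interval of the limma fit) for each of the 38 RNAs (y axis), coloured by class, filled where the adjusted p is under 0.05. The 5 filled points are Snora61, Snora7a, Snora62 and Rny1 to the left of 0 and Snora23 to the right.

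Among the box H/ACA RNAs, Snora23 was the single member called higher past the adjusted threshold. Its values (probe set 10556244) ran from 6.61 to 6.77 with a median of 6.70 in poly(I:C) offspring, against 6.18 to 6.48 with a median of 6.38 in controls (log2). Every poly(I:C) animal lay above every control. The means were 6.70 ± 0.07 in poly(I:C) offspring and 6.34 ± 0.12 in controls (SD, n = 6 each), a log2 difference of 0.35 ± 0.05 (SE, limma adjusted p = 0.0027). The call held in all 12 fits that left out 1 animal, with adjusted p from 0.0031 to 0.012. Control 5 had the lowest value of Snora23 too, and without it the difference was 0.32 ± 0.05 (limma adjusted p = 0.0041). With all animals the increase of Snora23 was the largest among the 38, the next being 0.17 for Snora30, which did not pass (limma adjusted p = 0.27).

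Snora61 is one of 3 box H/ACA RNAs that lie inside Snhg12, a noncoding gene that serves as their host. Its values (probe set 10508723) ran from 6.22 to 6.62 with a median of 6.42 in poly(I:C) offspring, against 6.53 to 6.98 with a median of 6.78 in controls. The groups overlapped only between poly(I:C) 6 at 6.62 and control 3 at 6.53. The difference was -0.36 ± 0.07 (SE, limma adjusted p = 0.016), or 1.28-fold lower in poly(I:C) offspring, and it passed in every fit that left out 1 animal (adjusted p up to 0.045). The other RNAs of that host differed less: Snora44 by -0.26 ± 0.15 (limma adjusted p = 0.36) and Snora16a by -0.11 ± 0.16 (0.77). Control 5 was the lowest control in both, at 7.11 for Snora44 and 7.86 for Snora16a. Without it they differed by -0.38 and -0.27 (limma adjusted p = 0.086 and 0.19).

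Snora7a lies inside the ribosomal protein gene Rpl32. Its values (probe set 10547073) ran from 7.39 to 7.71 with a median of 7.48 in poly(I:C) offspring, against 7.54 to 7.94 with a median of 7.83 in controls. Control 5, at 7.54, lay among the poly(I:C) animals, and the other 5 controls lay above all 6 of them, with poly(I:C) 6 the highest of those at 7.71. The difference was -0.30 ± 0.06 (SE, limma adjusted p = 0.017), a fall of 1.24-fold, and it was -0.36 ± 0.05 without control 5 (adjusted p = 0.0037). The call held without any single animal, narrowly so without control 2 (adjusted p = 0.0498).

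Snora62, which lies inside Rpsa, the gene of a small-subunit ribosomal protein, had a dimmer probe set (10590267). Its values ran from 4.79 to 5.05 with a median of 4.91 in poly(I:C) offspring, against 5.06 to 5.34 with a median of 5.13 in controls. The groups did not overlap, although the highest poly(I:C) animal and the lowest control were 5.053 and 5.055. The difference was -0.27 ± 0.06 (SE, limma adjusted p = 0.023), or 1.20-fold, and the call was lost without poly(I:C) 1 (adjusted p = 0.056). Control 5 stood in the middle of its group here, at 5.12, and the difference without it was -0.28 (adjusted p = 0.027).

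**Figure D3:**
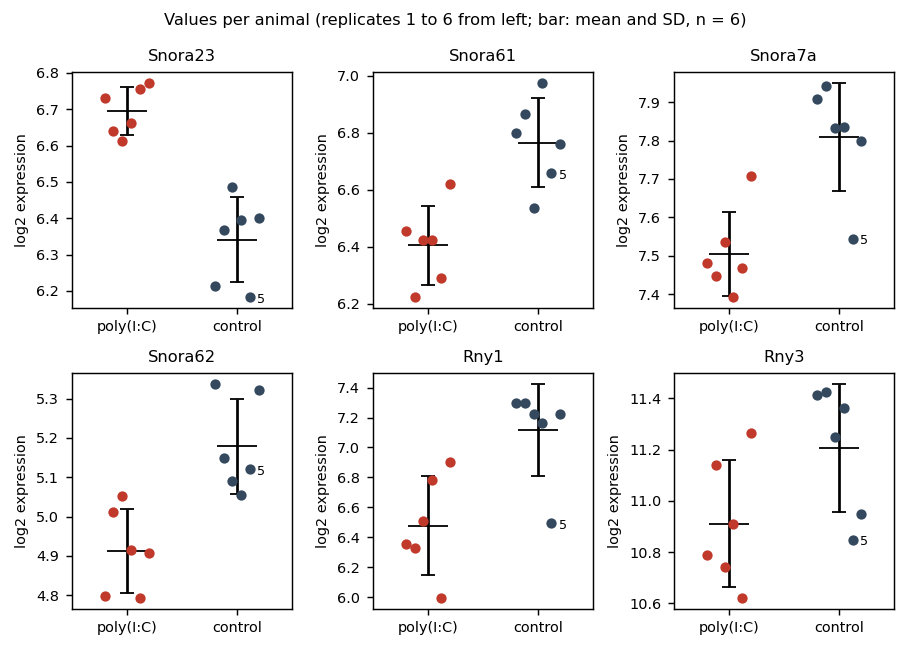
Log2 expression of 6 RNAs in each animal (points, replicates 1 to 6 from left to right), poly(I:C) offspring left and controls right, with the mean and SD of each group (n = 6) and control 5 labelled. Snora23 and Snora62 show no overlap between groups, while control 5 lies among the poly(I:C) animals for Snora7a, Rny1 and Rny3.

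Of the other 22 box H/ACA RNAs, 4 had an unadjusted p under 0.05 without passing. Snora70 differed by -0.22 ± 0.07 (limma adjusted p = 0.078) and Snora33 by -0.11 ± 0.05 (0.26), while Snora75 differed by 0.16 ± 0.06 (0.16) and Snora20 by 0.09 ± 0.04 (0.19). Snora70 passed without poly(I:C) 6 (-0.27, adjusted p = 0.032). These 4 were dim, with means between 3.65 and 4.73, below the median of 5.80 over the annotated probe sets.

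The spread of several box H/ACA RNAs, bright and dim, was smaller without control 5. Snora3, inside the ribosomal protein gene Rpl27a, had values from 7.30 to 8.48 in poly(I:C) offspring, against 6.75 in control 5 and 8.15 to 8.43 in the other 5 controls. With all animals it differed by -0.31 ± 0.25 (SE, limma adjusted p = 0.52), and without control 5 by -0.57 ± 0.16 (0.066). Another probe set of Snora3 differed by -0.32. The SD of the controls for the brighter one was 0.64 with that animal and 0.14 without it. Snora73a and Snora73b, also called U17 RNAs, act in cutting the ribosomal precursor, are near-identical copies inside Snhg3 and may share probes. They differed by -0.13 ± 0.14 and -0.18 ± 0.14 with all animals, and by -0.28 ± 0.09 and -0.32 ± 0.09 without control 5 (limma adjusted p = 0.10 and 0.067). Snora74a, inside Snhg4, and Snora34, inside Kansl2, differed by -0.15 ± 0.15 and -0.17 ± 0.17, and by -0.29 and -0.35 without that animal, not passing either way (limma adjusted p = 0.14 and 0.11 without it). Snora21, inside Rpl23, differed by -0.16 ± 0.08 with all animals (limma adjusted p = 0.29; -0.10 in its other probe set), and passed without control 5 (-0.25 ± 0.05, adjusted p = 0.022). Snora33, inside Rps12, also passed without that animal (-0.16 ± 0.04, adjusted p = 0.028).

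The remaining 10 box H/ACA RNAs did not pass, with or without control 5. Snora52, inside Rplp2, ran from 9.53 to 9.78 in poly(I:C) offspring and from 9.55 to 9.93 in controls, a difference of -0.07 ± 0.06. It was -0.11 without control 5. Snora28 differed by -0.02 ± 0.10, Snora31 by -0.04 ± 0.07, Snora36b by -0.04 ± 0.04 and Snora41 by -0.02 ± 0.07. Without control 5 the differences were -0.13 for Snora28, -0.10 for Snora31, -0.04 for Snora36b and -0.05 for Snora41. Differences above 0 were those of Snora30 (0.17 ± 0.08), Snora19 (0.05 ± 0.03), Snora69 (0.04 ± 0.06), Snora2b (0.03 ± 0.05) and Snora5c (0.03 ± 0.04), in this order. Without control 5 they were 0.14 for Snora30, 0.04 for Snora19, 0.02 for Snora69 and 0.02 for Snora2b, while that of Snora5c turned to -0.0047.

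No small Cajal body RNA passed in the limma fit, and 1 of the 3, Scarna17, had an unadjusted p under 0.05. Scarna17 ran from 7.71 to 8.06 with a median of 7.80 in poly(I:C) offspring, against 7.88 to 8.38 with a median of 8.02 in controls, a difference of -0.23 ± 0.08 (SE, limma adjusted p = 0.11). All 6 poly(I:C) animals lay below the control mean, but control 5, the lowest animal in 18 members, had the highest value of Scarna17, and without it the difference was -0.17 (adjusted p = 0.17). Scarna13, inside Snhg10, differed by -0.06 ± 0.08, and by -0.13 ± 0.06 without control 5 (adjusted p = 0.23). Scarna8, inside Haus6, differed by 0.05 ± 0.05, and by 0.04 without that animal.

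Rny1 had the largest difference of all 38. Y RNAs bind the Ro60 and La proteins and are known for roles in RNA quality control and in the start of DNA replication. Rny1 (probe set 10544523) ran from 5.99 to 6.90 with a median of 6.43 in poly(I:C) offspring, against 6.49 to 7.30 with a median of 7.22 in controls. The 5 controls other than control 5 lay between 7.17 and 7.30, above every poly(I:C) animal. Control 5, at 6.49, lay between poly(I:C) 1 and poly(I:C) 3. The means were 6.48 ± 0.33 in poly(I:C) offspring and 7.12 ± 0.31 in controls (SD, n = 6 each). This is a log2 difference of -0.64 ± 0.15 (SE, limma adjusted p = 0.030), or 1.56-fold. Without control 5 the difference was -0.76 ± 0.12 (adjusted p = 0.0053). The call held in 6 of the 12 fits that left out 1 animal. The other fits, which lacked 1 of controls 1, 2, 3 and 6 or 1 of the poly(I:C) animals 1 and 3, gave adjusted p of at most 0.073. Y RNAs have many pseudogene copies in mammalian genomes, and the probe sets may read these too.

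Rny3 is the genomic neighbour of Rny1. It ran from 10.62 to 11.26 with a median of 10.85 in poly(I:C) offspring, against 10.85 to 11.43 with a median of 11.31 in controls, so that the groups overlapped over much of their range. Controls 5 and 6 were its lowest controls, at 10.85 and 10.95. The difference was -0.30 ± 0.11 (SE, limma adjusted p = 0.16), with 5 of 6 poly(I:C) animals below the control mean. Without control 5 it was -0.37 (adjusted p = 0.074), and it passed without controls 5 and 6 together (-0.45, adjusted p = 0.032). In that fit 7 members passed in all, 6 lower and 1 higher, beside a background of 2.71%.

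No U RNA passed in the limma fit, and 2 of the 5 had an unadjusted p under 0.05. Rnu3a is the U3 RNA, which acts in the first cuts of the ribosomal precursor and belongs to the box C/D class in spite of its name. It ran from 3.42 to 3.77 with a median of 3.61 in poly(I:C) offspring, against 3.69 to 3.99 with a median of 3.81 in controls. Its difference of -0.21 ± 0.06 lay close to the threshold (limma adjusted p = 0.056) and passed without control 4 (0.038) or control 5 (0.049). Rnu5g, a U5 RNA of the spliceosome, differed by -0.25 ± 0.08 (adjusted p = 0.096). Both probe sets were dim, below the 25th percentile of 4.34.

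Rnu2-10, a U2 RNA, which pairs with the branch point of introns, was represented by 11 probe sets, and because U2 genes occur as near-identical copies these may share probes. Its brightest probe set ran from 8.72 to 9.46 in poly(I:C) offspring, against 8.31 in control 5 and 9.17 to 9.56 in the other controls. The difference was -0.09 ± 0.17, with the other 10 probe sets between -0.16 and -0.08, and it was -0.28 without control 5 (limma adjusted p = 0.14). Rnu12, of the minor spliceosome, differed by -0.04 ± 0.06 (-0.08 without control 5), and Rnu7, which acts at the 3′ ends of histone messages, by 0.01 ± 0.05 (0.0028 without it).

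Rmrp, the RNA of RNase MRP, a nuclease that cuts the ribosomal precursor, ran from 9.84 to 10.05 with a median of 9.97 in poly(I:C) offspring, against 9.84 to 10.40 with a median of 10.22 in controls. All 6 poly(I:C) animals lay below the control mean, but control 5 was the lowest of all 12, just below poly(I:C) 4. The difference was -0.24 ± 0.07 (SE, limma adjusted p = 0.093), and -0.31 ± 0.06 without control 5 (adjusted p = 0.012). Terc, the template RNA of telomerase, ran from 5.19 to 5.77 with a median of 5.37 in poly(I:C) offspring, against 5.36 to 5.67 with a median of 5.54 in controls. Its groups overlapped, with poly(I:C) 5 the highest of all 12 animals, and the difference of -0.12 ± 0.09 (limma adjusted p = 0.47) had a 95% interval from -0.30 to 0.06.

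Leaving out 1 animal at a time gave between 2 and 8 lower calls and 1 higher call, Snora23, in each fit. The lowest number came without poly(I:C) 1 and the highest without control 5. The 9 calls without control 5 comprised the 5 of the full set with Rmrp, Rnu3a, Snora21 and Snora33 added, beside a background of 3.22% of all probe sets in that fit. Since that animal was singled out for its low values in these RNAs, the added calls are not separate support. The median difference over the 38 was -0.11 with all animals and ran from -0.17 without control 5 to -0.06 without control 2.

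**Figure D4:**
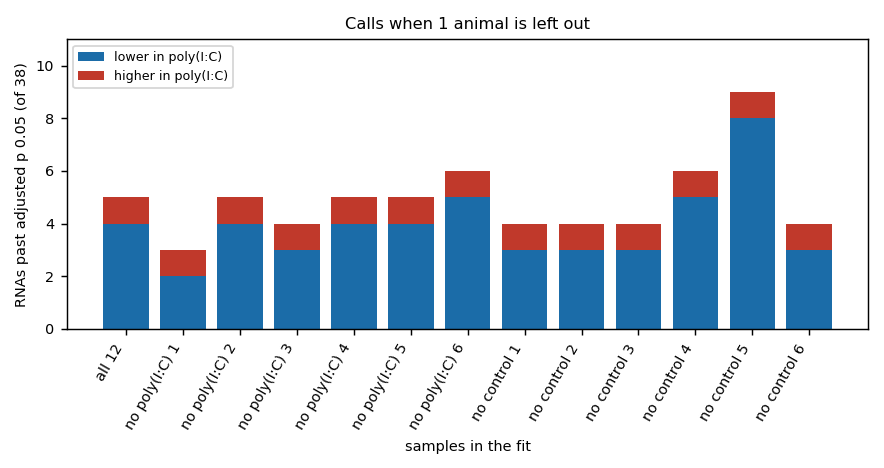
Number of the 38 RNAs past an adjusted p of 0.05 (y axis), lower (blue) and higher (red) in poly(I:C) offspring, with all 12 animals and with each animal left out (x axis). The tallest bar, 8 lower and 1 higher, is the fit without control 5, and the shortest, 2 lower and 1 higher, the fit without poly(I:C) 1.

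Since most of these RNAs are made from the transcripts of other genes, each was set beside the gene that contains it. Of the 38 members, 30 lay within the bounds of a larger gene in the RefSeq table, which gives no strand, and 19 of them were in genes with a probe set of their own, 18 distinct genes of which 7 encode ribosomal proteins. None of the 18 passed in the limma fit, with differences between -0.10 and 0.12 (lowest adjusted p = 0.074, Eif5), a median of 0.024, and 2 of them (Eif5 and Kansl2, both higher) at an unadjusted p under 0.05. Ribosomal protein genes have many processed pseudogenes, so that their brightest probe set may read such copies. Ipo7, the importin gene that contains Snora23, was 8.50 ± 0.07 in poly(I:C) offspring and 8.47 ± 0.04 in controls (SD, n = 6 each), a difference of 0.04 ± 0.04 beside 0.35 ± 0.05 for Snora23. Rpsa differed by -0.06 ± 0.03 beside -0.27 ± 0.06 for Snora62, and its 5 probe sets ran from -0.06 to -0.05. Rpl32 and Snhg12, which contain Snora7a and Snora61, had no probe set of their own. In control 5 the 18 genes deviated from their 12-sample means by -0.11 to 0.18, whereas Snora3 deviated by -1.13 and Rpl27a, which contains it, by 0.04. The difference between a short RNA and the gene around it was not tested.

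**Figure D5:**
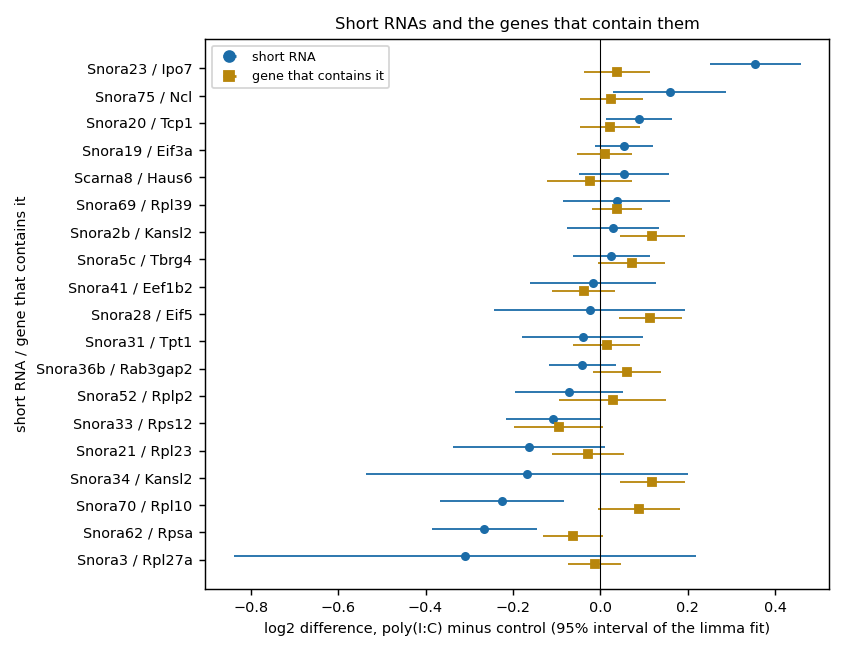
Log2 difference between poly(I:C) offspring and controls (x axis, with the 95% interval of the limma fit) for 19 short RNAs (circles) and the genes that contain them (squares), 1 pair a row. The squares stay between -0.10 and 0.12, and the circles spread from -0.31 for Snora3 to 0.35 for Snora23.

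The starts of the genes that contain 3 of the 4 called box H/ACA RNAs are shown because transcription of these RNAs begins there. Each line gives 50 bases before and 30 after the annotated start from RefSeq (GRCm38.p6), 5′ to 3′ on the strand of the gene, with the letters CCTTTC in capitals, which were picked out after these starts had been read.
Ipo7, around Snora23 (chr7:110018265-110018344, plus strand): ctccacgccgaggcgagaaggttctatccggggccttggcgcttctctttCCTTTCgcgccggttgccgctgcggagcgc
Snhg12, around Snora61 (chr4:132308628-132308707, plus strand): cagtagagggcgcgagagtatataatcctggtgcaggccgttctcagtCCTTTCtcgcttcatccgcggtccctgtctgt
Rpsa, around Snora62 (chr9:120127716-120127795, plus strand): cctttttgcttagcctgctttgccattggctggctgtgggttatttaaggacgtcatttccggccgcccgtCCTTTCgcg
CCTTTC occurred in 5 of the 22 containing genes with a start in the table, Rpl27a and Rplp2 being the others, and in 3.43% of all 32851 starts of the same length. Its place differed between the 3 genes shown: it began at base 1 of the transcript in Ipo7, 2 bases before the start in Snhg12 and at base 22 in Rpsa. On the opposite strand it occurred in none of the 22 and in 3.19% of all starts. Because the letters were picked from starts that are counted among the 22, these shares are a description and test nothing. The 3 genes shown contain both the RNA that rose and 2 that fell.

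Proteins that work with these RNAs, and some of related functions such as stand-alone pseudouridine synthases and telomere binding, were looked at in 9 lists. Of the 113 measured genes 9 were higher and 2 lower (9.73%, beside the background of 2.83%). The calls depended on scaling: quantile normalization left 4 genes higher and 2 lower, and median centring 6 and 1. Over all 23099 probe sets those settings called 524 and 530. Most of the listed genes lay at or above the median brightness. A fit on probe sets of that brightness alone called 868 of 11550, 693 of them higher. The adjusted p of the genes named below as called ran from 0.0048 to 0.048 in the limma fit. Of the 8 measured H/ACA core and assembly proteins none passed and 1 had an unadjusted p under 0.05, Naf1, an assembly factor (0.14 ± 0.05, limma adjusted p = 0.13). None of 10 Cajal body and SMN complex genes passed, adjusted or not, the lowest p being that of Coil, the coilin gene (0.10 ± 0.06, limma adjusted p = 0.33). The same held for 7 genes of Y RNA and La-type binding (Larp4, -0.06 ± 0.04, limma adjusted p = 0.38), a list that also holds Zbp1, which is not known as a Y RNA binder. Genes of snRNA transcription and 3′ processing held 4 of the higher calls among 18. They were Snapc3 (0.21 ± 0.04) and Snapc4 (0.23 ± 0.05), subunits of the complex that starts snRNA genes, and Ints7 (0.14 ± 0.03) and Ints10 (0.23 ± 0.03), subunits of the Integrator complex. Among 25 proteins of the U snRNPs, Rnpc3, of the minor spliceosome (0.40 ± 0.07), and Snrnp48 (0.17 ± 0.04) rose and Snrpf, a core Sm protein (-0.19 ± 0.04), fell. The Snrpf probe set was dim, with means of 3.76 in poly(I:C) offspring and 3.95 in controls, below the 25th percentile of 4.34. The other calls were Bdp1, of the RNA polymerase III initiation factor (0.16 ± 0.03, 1 of 12 polymerase III genes), Pus10, a stand-alone pseudouridine synthase (0.22 ± 0.04, 1 of 12), Terf1, of the telomere-binding complex (0.18 ± 0.04, 1 of 10 telomerase and shelterin genes), and Rpp25l, related to a subunit of RNase P and MRP (-0.13 ± 0.03, 1 of 11).

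Markers of the cells in the tissue were measured beside these results. Of the 6 markers listed for cortical glutamatergic neurons 5 were measured and none passed, with 1 at an unadjusted p under 0.05 (Neurod6, 0.12 ± 0.04, limma adjusted p = 0.10). Their mean log2 level ran from 9.57 to 9.61 in poly(I:C) offspring and from 9.52 to 9.59 in controls. Of the oligodendrocyte markers 5 of 7 were lower in poly(I:C) offspring past the threshold (6 of 7 after quantile normalization or median centring), with a mean from 7.39 to 7.91 in poly(I:C) offspring and 7.88 to 8.24 in controls. Of 6 striatal markers, of the neighbouring tissue, 1 fell, Ppp1r1b (-0.27 ± 0.06), and the other 5 had an unadjusted p under 0.05. Their median difference was -0.27 with all animals and -0.21 without control 5, with 1 call in both. No marker passed for interneurons, astrocytes, microglia, endothelium, choroid plexus and ependyma, or olfactory bulb, with 2 interneuron and 2 choroid plexus or ependyma markers at an unadjusted p under 0.05. The part of cell makeup in the differences of the short RNAs was not tested, and in bulk tissue fewer cells of a type and less RNA per cell cannot be told apart.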

How the data were processed

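RNA from the medial prefrontal cortex was hybridised to Affymetrix Mouse Gene 1.1 ST array strips, with 250 ng RNA as input, per the labels' protocols. Those name both a 3′ IVT and a whole-transcript kit with an oligo(dT) primer without saying which was used, which bears on whether the probe sets read the short RNAs or longer transcripts containing them. The authors deposited 1 log2 value for each probe set and array, as their range shows. The submitters' processing notes list RMA and Partek 6.6 with no order or function. No genome build behind the table is stated in the sources used here. Summaries of the RMA kind compress differences at low signal.

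Gene names came from the platform's annotation, possibly outdated, and all 38 members were found by gene identifier in the RefSeq table of GRCm38.p6, which gives no strand and was used for names and for which genes contain or neighbour others. Of 35556 rows, 23099 had at least 1 gene. Differences, poly(I:C) minus control, came from limma 3.58.1 in R 4.3.3 (lmFit, then eBayes) on these probe sets, with 6 against 6 samples and no covariate. Tests were two-sided and adjusted by the Benjamini-Hochberg method over all 23099. The script was tested on simulated data. The array number limits the precision. The members, lists and alternatives were chosen with earlier results of these data known. Values in the text were given for members past the adjusted threshold or without group overlap, Y RNAs, Rmrp and Terc, with members at an unadjusted p under 0.05 named, hosts named for called members, and for each list the called genes or the one with the lowest p. Values of the other members, and of further hosts, were added after they were seen. Alternatives comprised the replicate block, array weights, 2 rescalings, brightness filters at the 25th and 50th percentiles, all rows, other moderation, the mean of a gene's probe sets, and leaving out animals. Figures were drawn with matplotlib 3.10.9 in Python 3.11.15.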

Additional observations from a re-analysis of the deposited data

Results flagged for a closer look

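Within each group of 6 animals, the highest and the lowest value of every member were compared with the rest by the gap to the nearest animal as a share of the range, and called set apart above Dixon's 95% critical value for 6 animals. Of the 76 groups looked at, 8 held a value set apart in this way, or 10.5%. Chance flags about 1 in 20 groups, and over all annotated probe sets 6.38% of poly(I:C) groups and 6.10% of control groups held such a value. All 8 were control 5, each time as the lowest control. Over all annotated probe sets this animal was set apart as the lowest control in 0.576%. The values of control 5, with the nearest other control after each, were 6.753 for Snora3 (8.149), 8.314 for Rnu2-10 (9.167), 7.862 for Snora16a (8.662), 4.242 for Snora34 (5.081), 6.494 for Rny1 (7.167), 5.714 for Snora28 (6.293), 7.544 for Snora7a (7.799) and 4.310 for Snora5c (4.444), on the log2 scale. The 8 values come from 1 array and are not independent of one another. No poly(I:C) animal was set apart in any member.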

How the results depend on the processing

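The median difference over the 38 members stayed below 0 in all 23 alternatives, between -0.165 and -0.0623 when 1 animal was left out. The within-group SD of each animal's median over the members was 0.0945, a spread of single animals and not of a difference between group means. In each alternative 1 member was called higher, Snora23. The number called lower was 4 as reported and between 2 and 8 when 1 animal was left out. It was 2 with all 35556 rows of the table tested, where Rny1 and Snora62 did not pass (adjusted p = 0.0695 and 0.0550), and 6 without controls 5 and 6 together, where Snora62 did not pass (0.0512). Ordinary least squares in limma, with no moderation of the variance, gave 0. Over all probe sets these fits called 414 with all rows, 627 without controls 5 and 6 and 122 without moderation, against 653 as reported. When 1 animal was left out they called from 230 to 818. With the replicate block 5 members were called lower, Rnu3a being added (adjusted p = 0.0345). That fit called 536 of 23099 probe sets, 190 of them lower. Rnu3a also passed with median centring (0.0450) and with trend and robust moderation (0.0389), under which Rny1 was lost (0.0827). The replicate numbers did not pair the samples: same-numbered animals correlated at -0.0922 to 0.110 in their deviations from group means, and 1 of 12 samples correlated best with its own number. Of 355 values of 16 members under the alternatives, 328 kept direction and side of the threshold, 15 lost the call, 12 gained it and none reversed. The brightness filters left out 11 members at the 25th percentile and 20 at the 50th.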
